A study of Homo sapiens with 15 samples.

Results

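The control step of glycolysis at phosphofructokinase was described through 7 genes, namely the subunit genes PFKL, PFKM and PFKP, the regulator genes PFKFB2, PFKFB3 and PFKFB4, and TIGAR. They were taken by gene symbol, and all 7 were found in both deposited tables, which together list 17138 genes. RNA was sequenced from MRC5, a human lung fibroblast line, and from H196 tumor cells, with 3 libraries in each of 5 groups and 15 in all. MRC5_Mo and H196_Mo are the lines cultured singly, MRC5_CoH69 and MRC5_CoH196 are fibroblasts whose partner was H69 or H196, and H196_Co are tumor cells whose partner was MRC5. H69 is a neuroendocrine and H196 a non-neuroendocrine line of small cell lung cancer. The partners shared medium for a week across a membrane insert and did not touch, each cell type is a single line, and the labels name no drug or genetic change for any group. The methods name RPMI for the tumor lines and MEM for MRC5. They do not state the medium of the co-cultures, so a part of the medium in any change was not tested. The labels do not say whether the replicates were separate cultures, so the p-values measure only the spread between these libraries.

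Phosphofructokinase commits sugar to glycolysis by adding a second phosphate to fructose 6-phosphate. It works as a tetramer built from liver (PFKL), muscle (PFKM) and platelet (PFKP) subunits, and many proliferating cells carry a mixture. Its strongest activator, fructose 2,6-bisphosphate, is made and removed by the bifunctional PFKFB enzymes, of which PFKFB3 is known for high kinase activity and, with PFKFB4, as a hypoxia-inducible gene. TIGAR, first described as a p53 target, removes the same activator and is known for favouring the pentose phosphate pathway.

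The gene models lie on chromosome 21 at positions 44300040 to 44327373 for PFKL, on chromosome 12 at 48105353 to 48146404 for PFKM, on chromosome 10 at 3067415 to 3145166 for PFKP, on chromosome 1 at 207053063 to 207081027 for PFKFB2, on chromosome 10 at 6144918 to 6284199 for PFKFB3, on chromosome 3 at 48517684 to 48562383 for PFKFB4 and on chromosome 12 at 4321213 to 4360036 for TIGAR, as the tables give them for GRCh38.p13. PFKFB4 and PFKFB3 rose most in co-culture with H196 and TIGAR fell, so the 250 bases before their annotated starts are shown, from RefSeq on GRCh38.p14. Capitals mark ACGTG or GCGTG, the core letters that hypoxia-inducible factor is known to bind, on either strand, where CACGT and CACGC are the same letters read on the other strand.
PFKFB4, chr3:48556804-48557053, minus strand: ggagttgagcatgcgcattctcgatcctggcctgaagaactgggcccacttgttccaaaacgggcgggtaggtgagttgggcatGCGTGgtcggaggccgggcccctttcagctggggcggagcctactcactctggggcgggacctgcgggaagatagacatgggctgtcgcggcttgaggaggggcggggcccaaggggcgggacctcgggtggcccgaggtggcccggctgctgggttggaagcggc
PFKFB3, first window, chr10:6144671-6144920, plus strand: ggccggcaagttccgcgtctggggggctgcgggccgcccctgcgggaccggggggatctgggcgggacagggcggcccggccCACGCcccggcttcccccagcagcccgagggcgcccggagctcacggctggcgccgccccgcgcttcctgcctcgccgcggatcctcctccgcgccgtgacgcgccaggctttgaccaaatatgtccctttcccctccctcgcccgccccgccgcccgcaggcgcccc
PFKFB3, second window, chr10:6202682-6202931, plus strand: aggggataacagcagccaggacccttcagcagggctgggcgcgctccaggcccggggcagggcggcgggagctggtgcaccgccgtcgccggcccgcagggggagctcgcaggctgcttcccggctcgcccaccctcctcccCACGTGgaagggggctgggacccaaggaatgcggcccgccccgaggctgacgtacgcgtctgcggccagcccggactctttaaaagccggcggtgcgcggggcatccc
TIGAR, chr12:4320963-4321212, plus strand: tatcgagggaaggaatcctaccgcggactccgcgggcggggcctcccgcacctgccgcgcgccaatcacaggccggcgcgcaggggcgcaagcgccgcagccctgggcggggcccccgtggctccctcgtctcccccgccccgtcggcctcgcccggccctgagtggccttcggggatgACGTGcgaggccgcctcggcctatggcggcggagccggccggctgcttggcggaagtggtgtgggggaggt

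PFKFB4 held 1 GCGTG, which began 166 bases before the start. The second PFKFB3 window held CACGTG, which counts as ACGTG on both strands and is also the letters of an E-box, while the first held GCGTG on the opposite strand, beginning 168 bases before the start. TIGAR, which fell, held 1 ACGTG. PFKL held 1 GCGTG, PFKP 1 ACGTG in 1 of its 4 windows and 3 GCGTG in another, and PFKM 1 ACGTG in 1 of its 7 windows. Of all 35114 windows of the same length, 18.5% held ACGTG, 32.2% GCGTG, 43.2% either and 6.35% CACGTG, so a match is common and is a description only. PFKFB2 is named without a window.

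Library totals ran from 16073597 to 19170560 expected counts. Levels between genes are given as the authors' FPKM, which is per length of gene, and changes as log2 fold changes of counts from edgeR with the TMM scaling, where a gene passed the test at a Benjamini-Hochberg adjusted p under 0.05 over all genes tested and was called a DEG with an absolute log2 change over 0.58 as well. All 7 genes were high enough to be tested in every comparison, among 12819 genes for MRC5 and 12806 for H196. On the FPKM scale the median gene lay 0.13 lower (log2) in MRC5_CoH196 than in MRC5_Mo and 0.34 higher in H196_Mo than in MRC5_Mo. The median of the edgeR changes was within 0.03 of 0, which the TMM scaling largely sets by design. FPKM values across groups thus carry that shift relative to the edgeR changes, and which scale is nearer the truth was not tested. The 10 fibroblast markers summed to between 27030 and 30130 CPM (counts scaled to the library total) in MRC5_Mo and to between 12950 and 13720 in MRC5_CoH196, all 10 present in each, against 2.43 to 3.21 in H196, where COL1A2 was at 0 in H196_Mo. Of the 10, 5 passed as higher in MRC5_CoH196 than in MRC5_Mo and 4 as lower, with a median of 0.04, and the lower sum came from the collagens COL3A1 (-2.09), COL1A1 (-1.57) and COL1A2 (-0.56). Of 10 neuroendocrine markers, 7 were listed for H196 and summed to between 64.7 and 69.7 CPM, nearly all from CHGB, SYP and DLL3. The 95 genes found in every H196 library and nearly absent from MRC5_Mo summed to between 8.97 and 9.92 CPM in MRC5_Mo with 39 of them at 0, to between 8.36 and 10.4 in MRC5_CoH69 and to 53.5, 61.8 and 23.7 in the MRC5_CoH196 libraries with 1 at 0. That is at most 0.792% of the level in H196_Co, and such a share of the H196_Co mean would amount to 0.519 FPKM of PFKFB4, 0.134 of PFKFB3, 1.1 of PFKP and 0.74 of PFKL.

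In fibroblasts cultured with H196, both inducible PFKFB genes and 2 of the 3 subunit genes rose, while TIGAR fell. PFKFB4 stood at 30.9, 28.4 and 31.7 FPKM in MRC5_CoH196 and at 5.35, 5.02 and 4.63 in MRC5_Mo. PFKFB3 stood at 64.2, 60.9 and 64.1 FPKM against 21.3, 22 and 21.1. Every MRC5_CoH196 library lay far above every MRC5_Mo library for both genes, and the counts behind them were high, with 1694 to 1965 for PFKFB4 and 4598 to 4991 for PFKFB3 in MRC5_CoH196. PFKFB4 rose by 2.74 (log2, SE 0.0666, edgeR adjusted p = 1.6e-21), a 6.68-fold change. PFKFB3 rose by 1.77 (SE 0.0448, adjusted p = 3.52e-21), or 3.41-fold. PFKFB2, the isoform known from heart, remained at the low end of detection with 0.4 to 0.44 FPKM in MRC5_CoH196 and 0.43 to 0.59 in MRC5_Mo, from 44 to 67 counts per library. Its groups overlapped, and its change of -0.20 (95% interval -0.53 to 0.13) did not pass the test (adjusted p = 0.277). PFKFB1, the fourth gene of the family and no member of the set, had 0 to 6 counts in any MRC5 library and was not tested there.

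Of the subunits, PFKP changed most. It stood at 238, 227 and 237 FPKM in MRC5_CoH196 and at 120.2, 127 and 134 in MRC5_Mo, which did not overlap, and rose by 1.06 (SE 0.0458, edgeR adjusted p = 2.32e-16), or 2.08-fold. PFKL stood at 106, 100.2 and 109 FPKM against 79, 79.5 and 77.3, again with no overlap. It rose by 0.59 (SE 0.0445, adjusted p = 1.02e-11), which is just over the DEG limit of 0.58, and by 0.41 with limma on FPKM and 0.56 without the third MRC5_CoH196 library, which are under it. PFKM stood at 30.7, 31.4 and 30.8 FPKM against 32.1, 33.3 and 33.5, lower without overlap on this scale. Its change of 0.08 in counts (95% interval -0.01 to 0.16) did not pass (edgeR adjusted p = 0.127) and was -0.09 with limma on FPKM. TIGAR, which opposes the PFKFB kinases, stood at 2.68, 2.78 and 2.5 FPKM against 4.86, 5.02 and 5.31. Its highest MRC5_CoH196 library was below its lowest MRC5_Mo library, and it fell by 0.76 (SE 0.0623, edgeR adjusted p = 5.6e-11), to 0.591 of its level. In all, 4 of the 7 genes passed as higher and 1 as lower, where 37.2% of all genes tested passed as higher and 37.1% as lower, and 5 were DEGs against 31.9% of all genes. The median change of the 7 was 0.59, beside 0 for all genes. When single libraries were dropped, the PFKFB4 change ran from 2.69 to 2.80, PFKFB3 from 1.75 to 1.81 and TIGAR from -0.79 to -0.72. In bulk RNA, fewer cells of a type and less RNA per cell cannot be told apart, and the part of the lower collagen genes among the fibroblast markers in these changes was not tested.

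**Figure D1:**
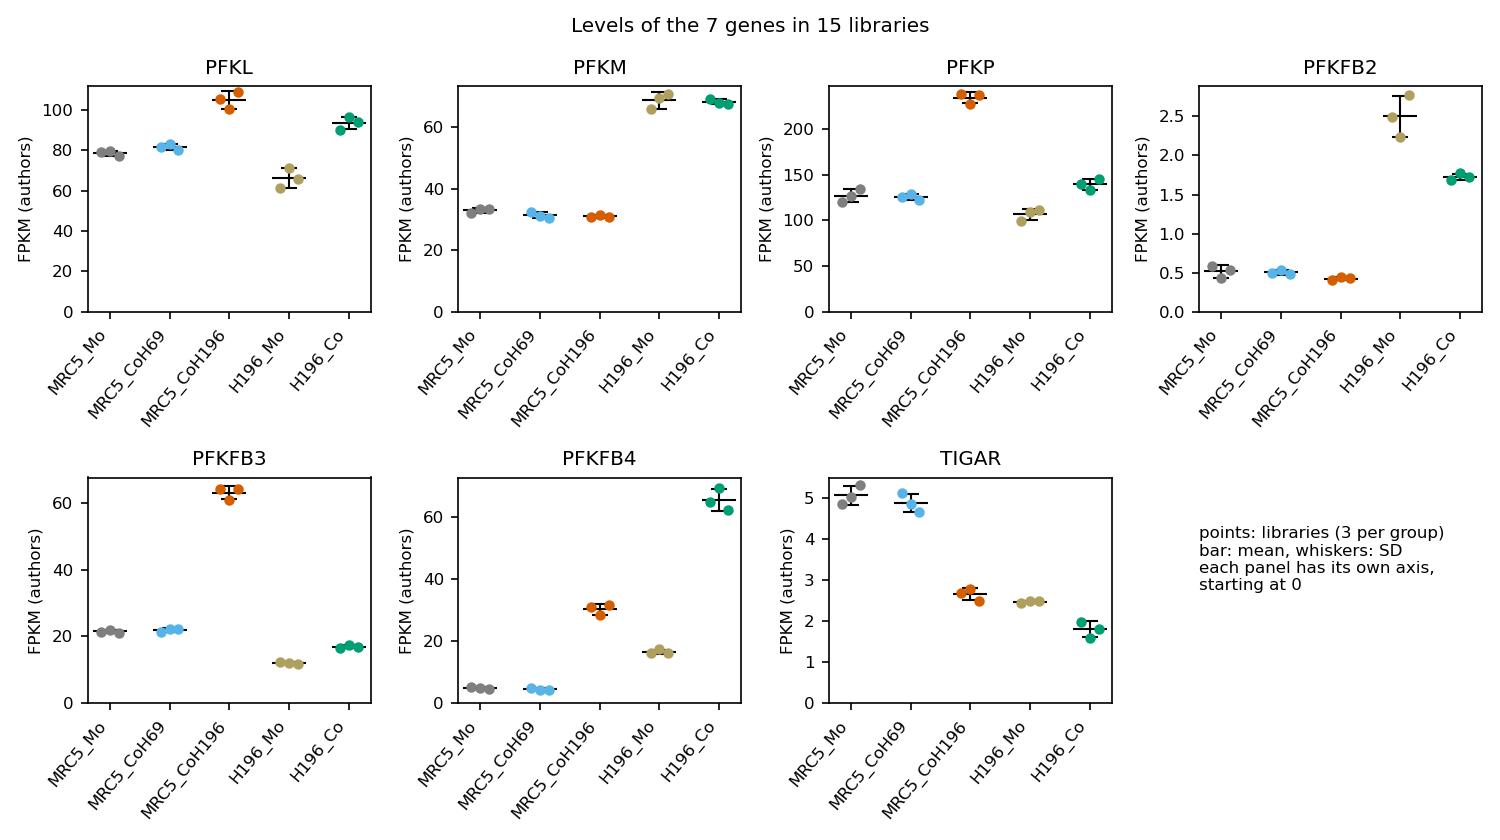
FPKM of each gene (vertical axis, linear from 0, a separate scale in each panel) in the 5 groups (horizontal axis); points are libraries, the bar is the mean and the whiskers are the SD of 3 libraries. PFKFB3 is highest in MRC5_CoH196 at 60.9 to 64.2 FPKM and PFKFB4 in H196_Co at 62.4 to 69.5 FPKM, while TIGAR is lower in co-culture with H196 than in MRC5_Mo and lower in H196_Co than in H196_Mo.

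In fibroblasts cultured with H69 cells no member passed the test. PFKFB4 stood at 4.86, 4.39 and 4.18 FPKM in MRC5_CoH69 and PFKFB3 at 21.3, 22.1 and 22.2, and both overlapped MRC5_Mo. PFKP stood at 126, 128 and 122 FPKM and TIGAR at 5.11, 4.85 and 4.66, which also overlapped. In edgeR, 0 of the 7 genes passed, at a background of 3.78% of all genes higher and 2.93% lower, with 0.554% DEGs. At an unadjusted p under 0.05 the count was 0 as well, and DESeq2 and limma also called 0. Changes ran from -0.15 for PFKFB4 (95% interval -0.31 to 0.02, adjusted p = 0.36) to 0.07 for PFKL (-0.02 to 0.16, adjusted p = 0.435). The intervals of PFKFB4, PFKFB3 (-0.05 to 0.13), PFKP (-0.1 to 0.09) and TIGAR (-0.15 to 0.07) exclude changes of the size seen with H196, whereas that of PFKFB2 was wide (-0.3 to 0.33). For PFKM the change was -0.07 (95% interval -0.15 to 0.02, edgeR adjusted p = 0.456). PFKL was the single gene whose FPKM groups separated, at 80.3 to 83.1 against 77.3 to 79.5.

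Set directly against each other, the co-cultures differed in 6 of the 7 genes, 5 higher and 1 lower in MRC5_CoH196 than in MRC5_CoH69, where 35.7% and 36.6% of all genes passed in those directions. There were 4 DEGs, against 28.2% of all genes. PFKFB4 was higher by 2.89 (SE 0.0678, adjusted p = 9.6e-22), PFKFB3 by 1.73 (SE 0.0447), PFKP by 1.06 (SE 0.0459) and PFKL by 0.52 (SE 0.0444, adjusted p = 1.22e-10). TIGAR was lower, at -0.72 (SE 0.0625, adjusted p = 1.96e-10). PFKFB2 did not pass, at -0.22 (95% interval -0.55 to 0.11, edgeR adjusted p = 0.243). PFKM passed at 0.14 (adjusted p = 0.00683) on counts, but was -0.02 with limma on FPKM (adjusted p = 0.718) and its FPKM overlapped, so its direction turns with the scaling. This comparison shares its MRC5_CoH196 libraries with the first.

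In H196 cells cultured with the fibroblasts, PFKFB4, PFKFB3, PFKL and PFKP rose and PFKFB2 and TIGAR fell, and PFKFB4 changed most. PFKFB4 stood at 64.8, 69.5 and 62.4 FPKM in H196_Co and at 16.1, 17.4 and 16.2 in H196_Mo, and rose by 2.06 (SE 0.0741, edgeR adjusted p = 7.69e-14), or 4.18-fold. PFKFB3 stood at 16.5, 17.4 and 16.8 FPKM against 12.3, 12.1 and 11.7, and rose by 0.58 (SE 0.0693, adjusted p = 5.81e-06), a smaller step that lay on the DEG limit without passing it. PFKFB2 moved the other way, from 2.49, 2.24 and 2.77 FPKM in H196_Mo to 1.69, 1.77 and 1.72 in H196_Co, and fell by 0.48 (SE 0.11, adjusted p = 0.00423). None of these 3 genes overlapped between the groups, so the regulator mRNA of H196 cells shifted toward PFKFB4. PFKFB1 had 8 to 15 counts in any H196 library.

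PFKL stood at 90.1, 96.3 and 94.2 FPKM in H196_Co against 61.4, 71.1 and 66, and rose by 0.57 (SE 0.0724, edgeR adjusted p = 1.09e-05). PFKP stood at 140, 133 and 145 FPKM against 99.9, 109 and 111, and rose by 0.46 (SE 0.0733, adjusted p = 0.000154). PFKM stood at 69.2, 67.8 and 67.5 FPKM against 65.7, 69.3 and 70.8, which overlapped, and its change of 0.07 (95% interval -0.07 to 0.2) did not pass (adjusted p = 0.511). TIGAR stood at 1.99, 1.6 and 1.8 FPKM against 2.44, 2.48 and 2.48, from 214 to 342 counts, and fell by 0.38 (SE 0.0988, adjusted p = 0.0108). Thus 4 of the 7 genes passed as higher and 2 as lower, against a background of 12% and 7.78% of all genes. Only PFKFB4 was a DEG, where 3.86% of all genes were, and PFKL and PFKFB3 joined it when all 15 libraries were fitted together or when the first H196_Co or the second H196_Mo library was left out, which gave 3.

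**Figure D2:**
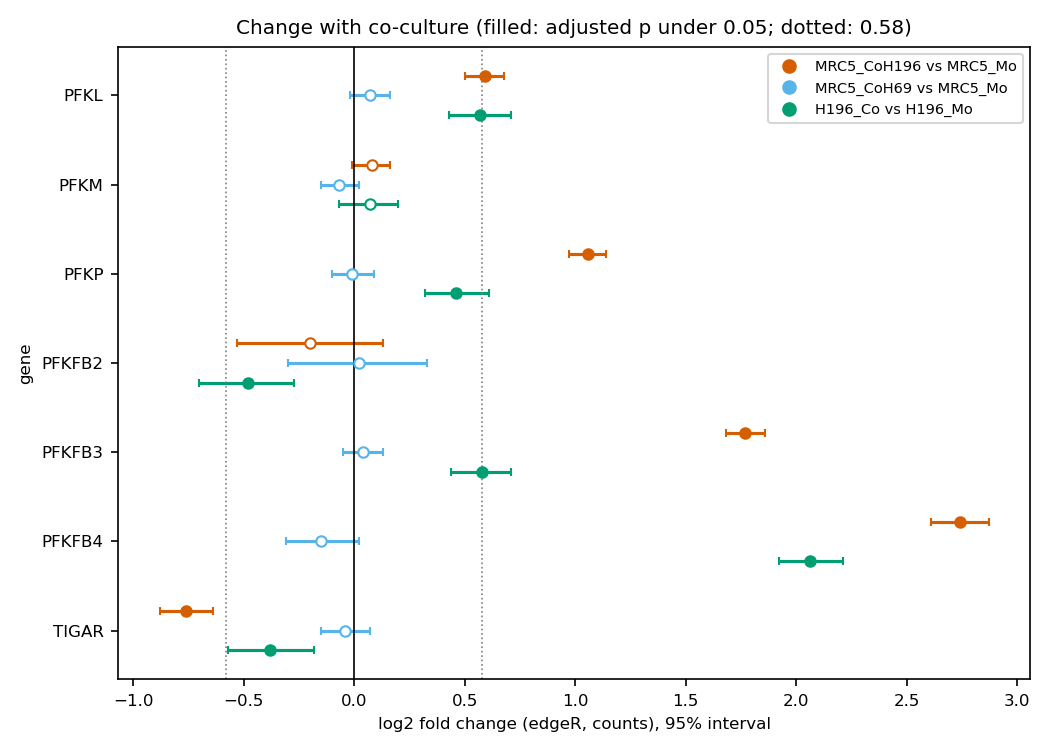
Log2 fold change of each gene with its 95% interval (horizontal axis) in the co-cultures against the same cells alone; filled points passed the test at an adjusted p under 0.05 and dotted lines mark the DEG limit of 0.58. PFKFB4 lies at 2.74 in MRC5_CoH196 and 2.06 in H196_Co, and all 7 points of MRC5_CoH69 are open and lie between -0.15 and 0.07.

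The test of the difference between the responses of the partners asked whether fibroblasts and tumor cells of the same co-culture changed by unequal amounts, over 13585 genes in 1 fit. PFKFB3 differed most, by 1.17 (SE 0.0732, edgeR adjusted p = 5.15e-13), with the larger rise in the fibroblasts. PFKFB4 (0.65, SE 0.0989, adjusted p = 3.73e-06) and PFKP (0.56, SE 0.0827, adjusted p = 2.16e-06) also rose more in the fibroblasts, and TIGAR fell more there (-0.41, SE 0.113, adjusted p = 0.00349). For PFKL the difference was -0.01 (95% interval -0.17 to 0.15), for PFKM -0.02 (-0.16 to 0.12) and for PFKFB2 0.25 (-0.13 to 0.64), none of which passed. Hence 3 of the 7 genes passed as higher and 1 as lower, where 24.1% and 27.1% of all genes did, and 2 passed with an absolute difference over 0.58, against 24.7%.

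Cultured alone, the lines already differed in all 7 genes, with 3 higher and 4 lower in H196_Mo than in MRC5_Mo, but 44% of all genes passed as higher and 42.6% as lower and 61.7% were DEGs, so this count is near the background. PFKFB2 was higher by 1.73 (SE 0.126, adjusted p = 3.04e-13), PFKFB4 by 1.25 (SE 0.0773) and PFKM by 0.62 (SE 0.0521). TIGAR was lower, at -1.48 (SE 0.0748, adjusted p = 7.29e-17), as were PFKFB3 (-1.28, SE 0.0534), PFKL (-0.69, SE 0.0575) and PFKP (-0.69, SE 0.0591). On FPKM with limma, PFKL and PFKP were each lower by 0.25 only, which carries the shift of 0.34 of the median gene. Line, table and culture medium cannot be told apart, since each line has its own table and its own medium.

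Ranked by mean FPKM over the 5 groups, each gene had its own order, in which the places of H196 groups among MRC5 groups depend on the scaling. PFKFB4 ran from 4.48 in MRC5_CoH69 and 5 in MRC5_Mo, which overlapped, through 16.5 ± 0.747 in H196_Mo and 30.3 ± 1.74 in MRC5_CoH196 to 65.6 ± 3.63 in H196_Co (SD, n = 3). In FPKM the co-cultured fibroblasts thus passed the level of H196 cells alone by 1.84-fold but remained below co-cultured H196 cells by 2.16-fold. Scaled by TMM over all 15 libraries, PFKFB4 lay at 5.44 log2 CPM in H196_Mo, 6.91 in MRC5_CoH196 and 7.52 in H196_Co. That is the same order with steps of other sizes. PFKFB3 had the opposite leader, from 12 in H196_Mo and 16.9 in H196_Co through 21.5 in MRC5_Mo and 21.9 in MRC5_CoH69, which overlapped, to 63.1 ± 1.86 in MRC5_CoH196. PFKP ran from 107 in H196_Mo to 234 in MRC5_CoH196, and MRC5_CoH69, MRC5_Mo and H196_Co could not be separated from the neighbour in that order, at 126, 127 and 139. PFKL ran from 66.2 in H196_Mo over 78.6 in MRC5_Mo, 81.6 in MRC5_CoH69 and 93.5 in H196_Co to 105 in MRC5_CoH196, with no overlap between neighbours. With counts scaled by TMM over all 15 libraries, H196_Co lay below MRC5_Mo for both subunits, at 7.72 against 7.82 log2 CPM for PFKL and 8.15 against 8.36 for PFKP. PFKM fell into a low level in the fibroblasts, 30.9 to 33, and a high level in H196, 68.2 and 68.6. Neighbours in rank overlapped inside each line, whereas MRC5_CoH196 and MRC5_Mo, which were not neighbours, did not overlap. TIGAR was lowest in H196_Co at 1.8, followed by H196_Mo at 2.47, MRC5_CoH196 at 2.65, and MRC5_CoH69 and MRC5_Mo at 4.87 and 5.06, which overlapped. PFKFB2 was highest in H196_Mo at 2.5 and never above 0.59 FPKM in a fibroblast library.

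The balance of the subunits moved with these changes, in percent of the summed FPKM of PFKL, PFKM and PFKP in a library. That sum was 239 ± 6.8 FPKM in MRC5_Mo, 239 ± 4.96 in MRC5_CoH69 and 370.0 ± 9.81 in MRC5_CoH196, and 241 ± 12.6 in H196_Mo and 301 ± 4.98 in H196_Co. PFKP made up 52 to 54.7% in MRC5_Mo and 62.9 to 63.6% in MRC5_CoH196, a difference of 10.1 points. PFKM dropped from 13.8% to 8.37% and PFKL from 33% to 28.4%, so the subunit mRNA of the fibroblasts became richer in that of the platelet subunit. Protein was not measured. In H196 cells PFKM gave way as well, from 28.4% to 22.7%, but PFKL took the larger part of the gain, from 27.4% to 31.1%, and PFKP went from 44.2% to 46.3%. In each of these comparisons the libraries did not overlap, and the exact permutation p of 0.1 is the smallest that 3 against 3 libraries can give. Between MRC5_CoH69 and MRC5_Mo the PFKP share differed by -0.555 points (exact p = 0.7) and the PFKL share by 1.25 points (exact p = 0.2), while the PFKM share was 13.1% against 13.8% without overlap (exact p = 0.1).

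**Figure D3:**
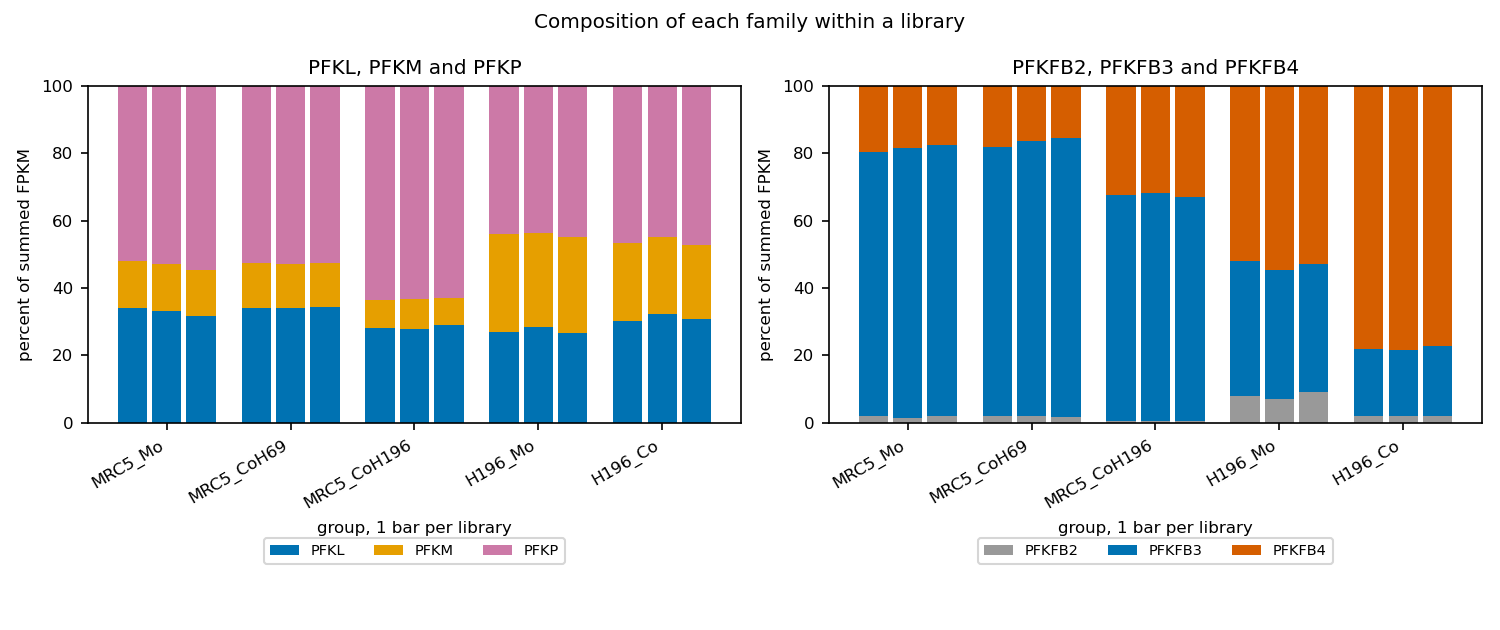
Percent of the summed FPKM (vertical axis) held by each subunit gene (left) and each PFKFB gene (right), with 1 stacked bar per library and libraries grouped along the horizontal axis. PFKP rises to 63.3% in MRC5_CoH196, and PFKFB4 goes from 18.5% to 32.3% in the fibroblasts and from 53.2% to 77.8% in H196 cells.

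The regulators showed a larger change of balance. PFKFB3 was the main regulator transcript of fibroblasts, with 79.6% of the summed PFKFB2, PFKFB3 and PFKFB4 FPKM in MRC5_Mo and 67.2% in MRC5_CoH196, whereas PFKFB4 was the main one of H196 cells, with 53.2% in H196_Mo and 77.8% in H196_Co. The log2 ratio of PFKFB4 to PFKFB3 was -2.00, -2.13 and -2.19 in MRC5_Mo and -1.05, -1.10 and -1.01 in MRC5_CoH196. In H196 it was 0.39, 0.52 and 0.47 alone and 1.97, 2.0 and 1.89 in co-culture. So PFKFB4 gained on PFKFB3 in both partners, by 1.05 in fibroblasts and by 1.49 in H196 cells, with no overlap (exact permutation p = 0.1, the smallest possible). PFKFB2 lost ground to PFKFB3 by 1.83 in fibroblasts and by 1.02 in H196 cells (exact p = 0.1 each), and its share fell from 8.07% to 2.05% in H196.

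In the ratios of PFKFB4 and PFKFB3 to TIGAR, numerator and denominator changed in opposite directions. PFKFB4 and TIGAR were level in MRC5_Mo, with log2 ratios of 0.14, 0.00 and -0.20, and stood at 3.53, 3.35 and 3.67 in MRC5_CoH196. In H196 the ratio went from 2.72, 2.81 and 2.70 to 5.02, 5.44 and 5.11. The gains were 3.53 and 2.45 (exact p = 0.1 each). PFKFB3 to TIGAR rose from 2.09 to 4.57 in fibroblasts and from 2.28 to 3.24 in H196 (exact p = 0.1 each). In MRC5_CoH69 these ratios were -0.12 and 2.17, overlapping MRC5_Mo (exact p = 0.4 each). Among subunits, PFKP to PFKM rose by 0.97 in fibroblasts and by 0.40 in H196 (exact p = 0.1 each), while PFKP to PFKL rose by 0.47 in fibroblasts (exact p = 0.1) and differed by -0.11 with overlap in H196 (exact p = 0.3).

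**Figure D4:**
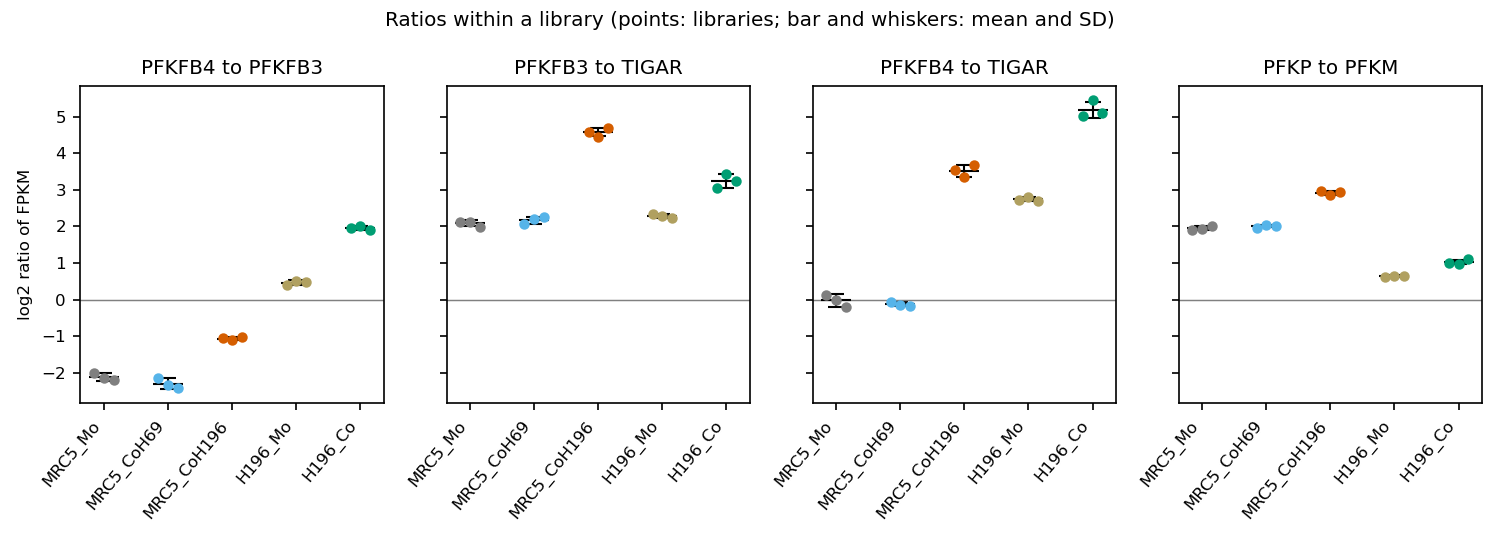
Log2 ratio of FPKM within a library (vertical axis) for 4 gene pairs in the 5 groups; points are libraries, the bar is the mean and the whiskers are the SD of 3 libraries. PFKFB4 to PFKFB3 is below 0 in every fibroblast library and above 0 in every H196 library, and PFKFB4 to TIGAR rises from -0.02 to 3.52 in fibroblasts and from 2.74 to 5.19 in H196 cells on average.

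The steps on either side of phosphofructokinase moved with it. Of the neighbouring genes, GPI, which supplies its substrate, and ALDOA and ALDOC, which split its product, all 3 tested in the fibroblasts rose in MRC5_CoH196, ALDOC by 1.71, ALDOA by 1.43 and GPI by 1.08, and 3 of 4 tested rose in H196_Co, ALDOC by 2.24, GPI by 1.75 and ALDOA by 1.23. The fourth, PFKFB1, did not pass. Of all genes, 37.2% passed as higher and 37.1% as lower in MRC5_CoH196, and 12% and 7.78% in H196_Co. FBP1 and FBP2 were not analysed here. GPI and ALDOC rose more in the tumor cells than in the fibroblasts, with differences of -0.69 (edgeR adjusted p = 4.64e-09) and -0.55 (adjusted p = 0.0151), whereas that of ALDOA was 0.18 and did not pass (adjusted p = 0.0869). With limma on log2(FPKM + 1) the difference of GPI passed and that of ALDOC did not. Of the rest of glycolysis, 12 of 14 tested genes rose in MRC5_CoH196 and 1 fell, with a median change of 0.88 beside 0 for all genes, led by the enolase ENO2 (3.85), the hexokinase HK2 (2.38) and the phosphoglycerate kinase PGK1 (1.80), and LDHB fell by 0.31. In H196_Co 11 of 13 rose and 0 fell, with a median of 0.55, led by HK2 (1.92), ENO2 (1.62) and PGK1 (1.26). In MRC5_CoH69, where 3.78% of all genes passed as higher and 2.93% as lower, 1 of 14 passed, LDHA at 0.18. With DESeq2 2 did, and 4 had an unadjusted p under 0.05 in edgeR. Of the 3 neighbouring genes 0 passed in edgeR, DESeq2 and limma, with 1 at an unadjusted p under 0.05 in edgeR. Fitted to the compared groups alone, edgeR passed 2 genes of the rest of glycolysis and 1 neighbouring gene. The same counts came without the second MRC5_CoH196 library, which shares the estimate of the spread. By point estimate, the rise of PFKFB4 exceeded that of every listed glycolytic enzyme but ENO2 in the fibroblasts and all but ALDOC in H196.

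The pentose phosphate pathway, which branches off before phosphofructokinase, differed between the partners. In MRC5_CoH196, where 37.1% of all genes passed as lower and 37.2% as higher, 6 of 7 genes fell and 1 rose, led by the dehydrogenase PGD, which fell by 1.19, and PGLS rose by 0.24. In H196_Co, against 12% and 7.78% of all genes, 1 rose, TKT by 0.29, and 1 fell, PGD by 0.21, and the number that passed was 1 when the first or the third H196_Co library or the second or the third H196_Mo library was left out or the replicate block was used. In MRC5_CoH69 3 passed as lower, against 2.93% of all genes, among them TKT and PGD, each by 0.18. Of the 3, 1 remained without the first or second MRC5_CoH69 or second MRC5_Mo library and 0 without the third MRC5_Mo library. In the test of the difference, 5 of 7 genes had a lower response in the fibroblasts than in H196 cells, where 27.1% of all genes did, among them TKT, which rose in H196_Co.

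**Figure D5:**
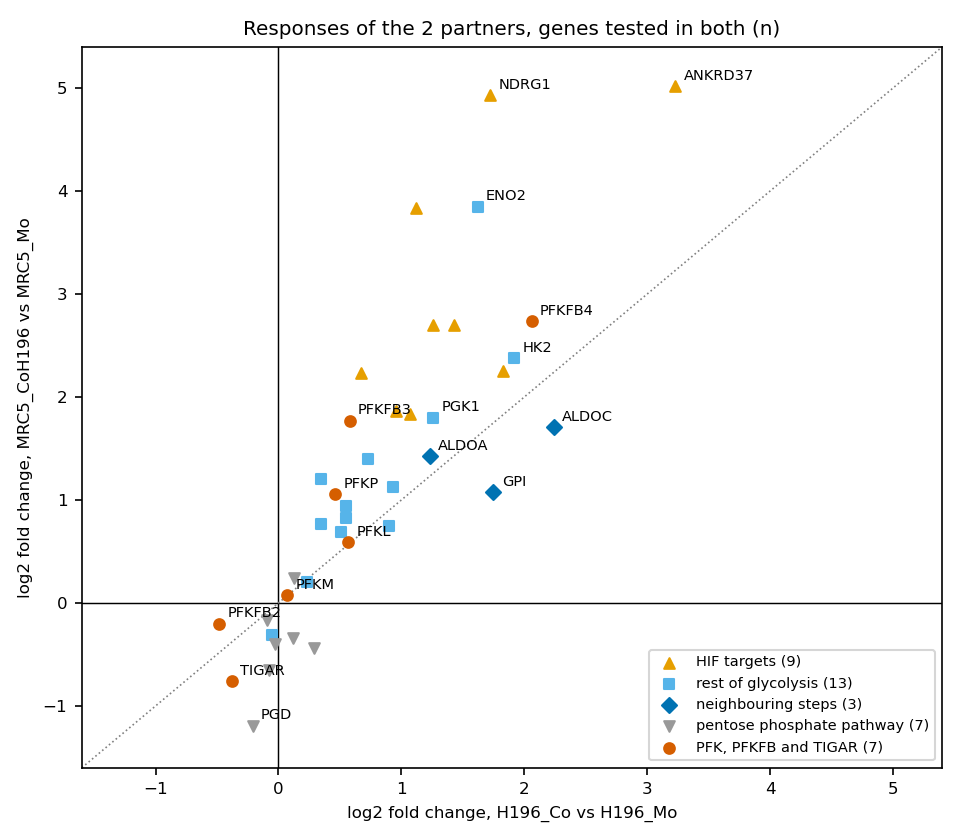
Log2 fold change in H196_Co against H196_Mo (horizontal axis) and in MRC5_CoH196 against MRC5_Mo (vertical axis) for the members and the listed genes tested in both; the dotted line marks equal change. PFKFB4 at 2.06 and 2.74 lies beside HK2 at 1.92 and 2.38, while GPI at 1.75 and 1.08 and ALDOC at 2.24 and 1.71 lie under the line and TIGAR at -0.38 and -0.76 lies with PGD in the lower left.

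Known targets of hypoxia-inducible factor, the class to which PFKFB3 and PFKFB4 are ascribed, were measured beside them. All 11 rose in MRC5_CoH196, where 37.2% of all genes passed as higher, with a median of 2.7. They were led by CA9 (7.06, from 3 to 11 counts per library in MRC5_Mo), EGLN3 (6.07, from 0 to 8 counts) and ANKRD37 (5.02). All 9 tested rose in H196_Co, against 12% of all genes, with a median of 1.26, led by ANKRD37 (3.23), ADM (1.83) and NDRG1 (1.72). CA9 and EGLN3, which led in the fibroblasts, were not tested in H196. In the H196_Co libraries CA9 had 0 counts and EGLN3 1 to 5. In MRC5_CoH69 6 of 11 passed as higher, against 3.78% of all genes, led by NDRG1 (0.44), VEGFA (0.34) and KDM3A (0.32). Of the 7 members 0 passed there.

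Known p53 targets were measured beside TIGAR, and a part of p53 in its fall was not tested. In MRC5_CoH196, where 37.2% of all genes passed as higher and 37.1% as lower, 7 of 12 rose, led by GDF15 (1.91), CDKN1A (0.91) and RRM2B (0.82), and 3 fell, among them TP53I3 (-1.45) and FAS (-0.81). In H196_Co, where 12% of all genes passed as higher and 7.78% as lower, 0 rose and 2 fell, TP53I3 by 0.45 and RRM2B by 0.27. The H196 count was 1 without the first or the third library of either group and 4 without the second H196_Co library, and it was 1 with the replicate block and 6 with all 15 libraries in one fit. In MRC5_CoH69, where 3.78% of all genes passed as higher and 2.93% as lower, 0 of 12 passed in edgeR, DESeq2 and limma. At an unadjusted p under 0.05 in edgeR there were 3. Of the AMPK subunits and AKT kinases, which are known to phosphorylate PFKFB enzymes, 5 of 9 rose in MRC5_CoH196, against the same 37.2% and 37.1%, among them PRKAA2 (1.31) and PRKAB2 (1.03), and 4 fell, led by PRKAB1 (-0.52) and PRKAG1 (-0.51). In H196_Co 1 passed, PRKAA1 at -0.27, which was lost without the first or the third H196_Co or the third H196_Mo library and with the replicate block, and 3 passed with all 15 libraries in one fit. In MRC5_CoH69 0 passed in edgeR, DESeq2 and limma, with 1 at an unadjusted p under 0.05 in edgeR. Without the second MRC5_CoH196 library, or with the compared groups alone, 1 p53 target passed in MRC5_CoH69, and without the first MRC5_Mo library 1 gene of the kinase list did.

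The genes whose pattern over the 15 libraries came nearest to each member were found among 9792 other genes (9793 for PFKFB2, itself under the level limit), by the root mean square difference of centred log2 CPM. For PFKFB4 they were HK2 (0.28), DDIT4 (0.311) and FAM162A (0.385), at larger distances than for any other member. For PFKFB3 they were SLC6A8 (0.0904), ADAMTSL4 (0.0983) and GADD45B (0.115), and for PFKP IFFO2 (0.105), VEGFB (0.117) and SIPA1L3 (0.119). PFKL had LONP1 (0.0745), BCKDK (0.0801) and KIAA2013 (0.0847), and PFKM had CSNK2B (0.0599), RPL41 (0.0614) and IMPDH2 (0.0628). TIGAR had TIMM23B (0.109), EHD3 (0.112) and CLEC16A (0.123), and PFKFB2 had CDKN2AIPNL (0.142), PAXIP1 (0.156) and RESF1 (0.158). No member was among the 3 nearest genes of another member.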

How the data were processed

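RNA from MRC5 and H196 cells was sequenced by the authors after oligo(dT) selection on the BGISEQ platform. Per the labels and methods, reads were cleaned with SOAPnuke and aligned with HISAT and Bowtie2, and the submitters' processing notes name HISAT2 2.1.0, Bowtie2 2.3.4.3, RSEM 1.3.1 and GRCh38.p13. The authors deposited 1 table for each line, with expected counts per gene, which are not normalized, and FPKM, which is per length and per mapped total and was given to 2 decimals. Expected counts were rounded, since 91.6 to 94.0% of the deposited values per library were whole numbers. Another 30 per-library columns (TPM and normalized counts), the authors' own fold changes and p-values, and a second copy of each table were not used.

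Counts were tested with edgeR 4.0.16 (R 4.3.3, TMM, filterByExpr, quasi-likelihood F test, two-sided, Benjamini-Hochberg over all genes), with the 9 MRC5 libraries in 1 fit, the 6 H196 libraries in another and all 15 for comparisons between the lines. DESeq2 1.42.0, limma 3.58.1 on log2(FPKM + 1) or log2(FPKM + 0.1), other filters, a replicate block and leaving out each library were the alternatives. On simulated counts with 200 changed genes, edgeR recovered 200 for MRC5_CoH196 against MRC5_Mo with 17 false calls among 12670 genes. In the real comparison 37.2% of genes passed as higher and 37.1% as lower. The simulation therefore does not check the scaling or the error rate with so many changed genes. Shares and ratios used exact two-sided permutation tests, for which 3 against 3 libraries allow no p under 0.1. Intervals are the estimate and 1.96 SE to each side. H196 RNA was traced with genes that reached 20 CPM in all H196 libraries while staying under 0.5 in all MRC5_Mo libraries.

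All 7 members were named in every comparison. Of each other list, at most the 3 largest rises and 2 largest falls among the genes that passed were named, some of which are not reported here, and of nearest genes the 3 closest with a mean of at least 10 CPM. The members and lists were chosen with earlier results of these data known.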

Additional observations from a re-analysis of the deposited data

Results flagged for a closer look

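A difference between the responses of the partners of the co-culture, tested over all 15 libraries in edgeR, was found for 4 of the 7 genes and 2 neighbouring ones. Of all genes tested, 24.1% passed as higher and 27.1% as lower, so the count of members is near the background. PFKFB3 rose by 1.17 (log2) more in fibroblasts than in H196 cells, PFKFB4 by 0.65 more and PFKP by 0.56 more, and for TIGAR the response was lower by 0.41 in the fibroblasts (a difference of -0.41). GPI differed by -0.69 and ALDOC by -0.55, that is, a larger rise in H196 cells, while ALDOA differed by 0.18 and did not pass. With limma on log2(FPKM + 1) the difference of ALDOC did not pass. The MRC5_CoH196 libraries, in which H196 marker RNA reached at most 0.792% of its level in H196_Co, enter each of these differences, and the 15 libraries were deposited in 2 tables that follow the lines.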

How the results depend on the processing

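Libraries with the same replicate number showed little shared deviation, with correlations of -0.151 to 0.081. The labels do not say whether replicate numbers pair the libraries across groups. With the replicate block, 5, 0, 6 and 6 of the 7 genes passed in MRC5_CoH196 against MRC5_Mo, MRC5_CoH69 against MRC5_Mo, MRC5_CoH196 against MRC5_CoH69 and H196_Co against H196_Mo, with 5, 0, 4 and 1 DEGs, as without it. The block lowered the H196_Co counts of the pentose phosphate and p53 lists from 2 to 1 and of the kinase list from 1 to 0. Between the lines the block left 4 genes with 2 over the fold limit for the difference of responses, and 7 with 7 DEGs for H196_Mo against MRC5_Mo.

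Of 776 recomputed changes of single members, 744 kept direction and side of the threshold, 31 turned direction and 1 newly passed, PFKFB2 in the difference of responses with limma on log2(FPKM + 1), at 0.27. The 31 had not passed the test in the first place except PFKM in MRC5_CoH196 against MRC5_CoH69, which was -0.02 on FPKM with either pseudocount. PFKM was also -0.09 on FPKM against MRC5_Mo and -0.01 in H196_Co, and PFKFB2 in MRC5_CoH69 was -0.01 and -0.02. In the difference of responses, PFKL turned to 0.04 with DESeq2 or its size factors and 0.02 with at least 10 counts in every library, and PFKM to 0.03 and 0.01. With each library left out, PFKP in MRC5_CoH69 ran from -0.05 to 0.03, PFKFB2 there from -0.09 to 0.12, and the differences of responses of PFKL from -0.07 to 0.09 and of PFKM from -0.05 to 0.04. In MRC5_CoH69 the PFKP share difference ran from -1.18 to 0.2003 points, positive without the third MRC5_Mo library, and the PFKFB2 to PFKFB3 difference from -0.19 to 0.06, positive without the third MRC5_CoH69 or first MRC5_Mo library. The causes were not tested.

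DEG counts moved with the fold limit. A limit of 1 left 3 DEGs in MRC5_CoH196 against MRC5_Mo, 1 in the difference of responses and 4 in H196_Mo against MRC5_Mo, and no limit gave 6 in H196_Co and 4 in the difference. All 15 libraries in 1 fit gave 3 DEGs in H196_Co, leaving out libraries gave 1 to 3, and limma on log2(FPKM + 1) gave 1 in the difference of responses. PFKFB2 in MRC5, at 44 to 67 counts, limits what could be seen of that gene, and intervals cover the spread between libraries only.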
